A study of Rattus norvegicus with 18 samples.

Results

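The mitochondrial genome of the rat carries 37 annotated genes, and all of them were taken here as the rows of the expression tables placed on chromosome MT. They make up 37 of the 32882 genes listed in each of 3 tables, with 13 rows that code for protein, 2 for ribosomal RNA and 22 for transfer RNA. The tables hold 3′ mRNA sequencing of myelin basic protein-reactive CD4+ T cells (T-MBP cells), a rat T cell line that causes experimental autoimmune encephalomyelitis after transfer into Lewis rats. Control T-MBP cells carried a non-targeting guide RNA and blue fluorescent protein, and Ets1-KO or Grk2-KO T-MBP cells carried a guide against that gene and a green fluorescent protein, so the fluorophore and the edit cannot be told apart. Cells were sorted on day 3 after transfer either from spinal cord parenchyma, in a table of Ets1-KO and control cells, or from the spleen, in a table of Ets1-KO and control and another of Grk2-KO and control cells, with 3 libraries in each of the 6 groups, 18 in all. Guides were electroporated with Cas9 protein into cells raised from an immunised rat by cycles of antigen stimulation, the methods name no cloning after editing, and the 2 kinds of cell were transferred together into rats with no stated depletion of their own T cells. The methods describe replicates as biological, and the labels do not tie a library to an animal.

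Mitochondrial DNA is transcribed from both strands as long precursors, and tRNAs that lie between the other genes are cut out to release the rRNAs and mRNAs. The mRNAs encode subunits of the respiratory chain and ATP synthase: Mt-nd1 to Mt-nd6 and Mt-nd4l belong to complex I, Mt-cyb to complex III, Mt-co1 to Mt-co3 to complex IV, and Mt-atp6 and Mt-atp8 to ATP synthase. The rRNAs form the mitochondrial ribosome that translates them, while all other parts of the chain come from nuclear genes. In T cells the respiratory chain is known for its part in activation and memory.

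In Rnor_6.0 coordinates the shorter rRNA row, AY172581.9, lies at positions 68 to 1025 of MT and the longer, AY172581.24, at positions 1094 to 2664, both on the plus strand; by order and length they are the small-subunit and the large-subunit rRNA. The mRNA rows follow from Mt-nd1 (2740 to 3694) to Mt-cyb (14136 to 15278), and of these Mt-nd6 (13543 to 14061) alone is on the minus strand. Some neighbours overlap: Mt-atp8 (7758 to 7961) shares 43 bases with Mt-atp6 (7919 to 8599), Mt-nd4l (9870 to 10166) shares 7 with Mt-nd4 (10160 to 11537), and Mt-nd5 (11736 to 13565) shares 23 with Mt-nd6 on the other strand. Reads in these overlaps, and reads that also match nuclear copies of mitochondrial DNA, may have been left out or split when the authors counted, and the strand setting is not given in the sources used here, so the values of these genes are less certain than the rest.

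Libraries held between 898092 and 2248258 reads on genes, and the spleen Ets1-KO libraries were deeper (1909862 to 2248258) than their controls (898092 to 1213485). All 10 T cell markers listed had reads in every group, and summed to between 2913 and 4007 RPM (reads on the gene per 1000000 reads on genes) in every library. Grk2 mRNA fell in Grk2-KO cells by 1.22 on the log2 scale (SE 0.13, limma adjusted p = 1.76e-12). Ets1 mRNA did not pass the test in Ets1-KO cells of the parenchyma (log2 difference 0.09, SE 0.07, limma adjusted p = 0.560) or the spleen (log2 difference -0.06, SE 0.11, limma adjusted p = 0.854), and a count of 3′ ends does not show an edit elsewhere in the transcript. According to the methods, editing in single KO lines was checked by sequencing before they were used. The supplement also holds an ETS1 protein blot of control and KO cells. Replicate 3 of the spleen Ets1-KO cells stood apart from its group in its mitochondrial reads, and its effect on the calls of that table is given beside them.

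Mitochondrial reads made up a large share of every library, and most of them came from the 2 rRNA rows. Over the 18 libraries the share of reads on all mitochondrial genes ranged from 14.1% to 27.4%, that of the rRNA rows from 11.3% to 24.4%, that of the mRNA rows from 2.66% to 3.46% and that of the tRNA rows from 0.0097% to 0.0503%. AY172581.24 was the row with the most reads in every library. A share of reads cannot tell more mitochondrial RNA per cell from less RNA of nuclear genes, nor fewer cells of a type from less RNA per cell.

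**Figure D1:**
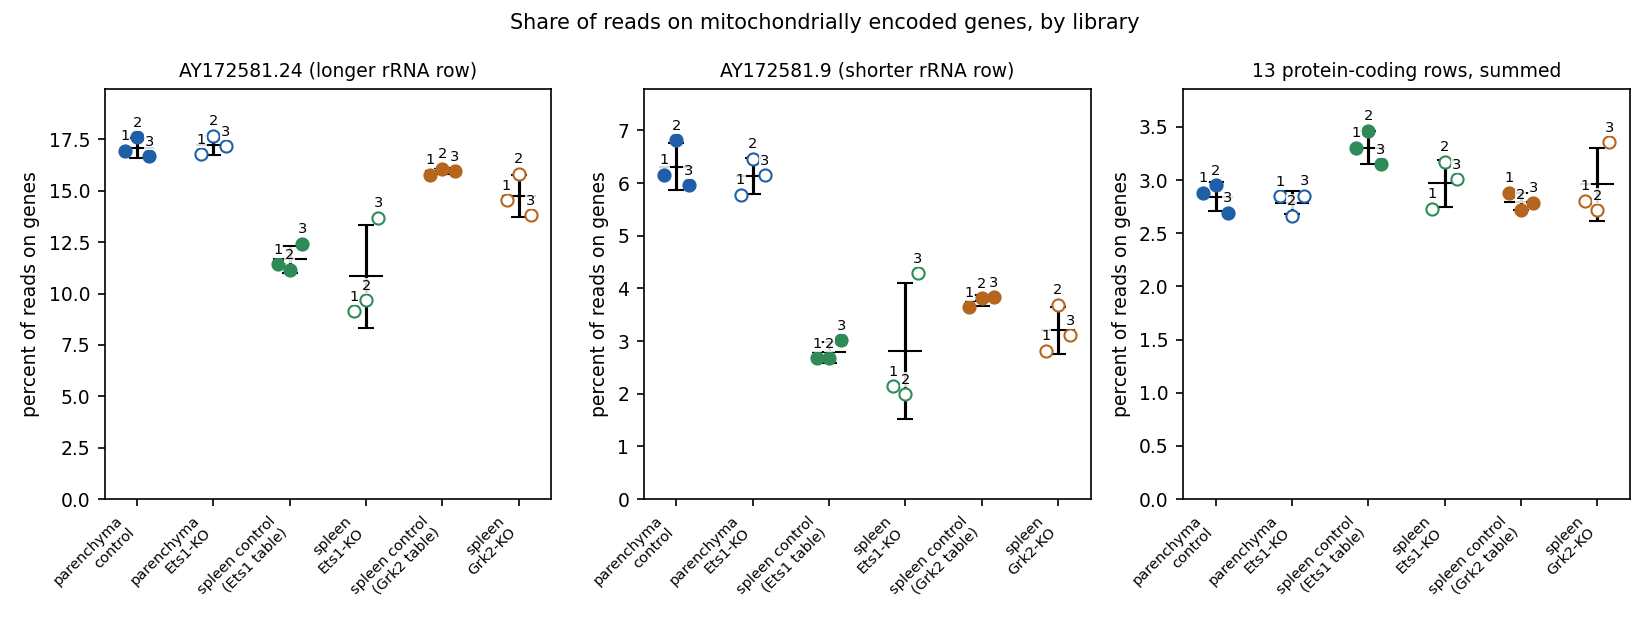
Percent of reads on genes that fell on the longer rRNA row, the shorter rRNA row and the summed protein-coding rows (y axes, from 0) in the 6 groups (x axis). Points are libraries marked with their replicate number, filled for control and open for KO cells; bars are the mean and SD of 3 libraries. Both rRNA rows were highest in the parenchyma, and replicate 3 of the spleen Ets1-KO cells lay above the other 2 of its group for both.

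Among the mRNA rows, 12 of 13 had reads in every library. Mt-nd4, a core subunit of complex I, was the exception: it was listed at 0 in all 12 libraries of the Ets1 tables and in the Grk2 table's controls, and had 3 reads in all, in 2 Grk2-KO libraries, while its neighbours Mt-nd3 and Mt-nd5 had 21985 and 13576 reads over the 18 libraries. A count of 0 allows up to 3 reads, or between 1.33 and 3.34 RPM depending on the library, and covers counting error only. Mt-nd4l, which overlaps the start of Mt-nd4, had 534 reads over all libraries.

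Per length, in RPM per kb, Mt-atp6 was highest in each set of controls. In the parenchyma controls its mean was 13177 ± 893 (SD, n = 3), followed by Mt-atp8 at 8797 ± 1566, Mt-co2 at 6045 ± 375 and Mt-nd2 at 2860 ± 154. Next in order came Mt-co3 (2533 ± 135), Mt-nd3 (2282 ± 343) and Mt-cyb (2022 ± 71.4), where each of the first 2 overlapped its lower neighbour, then Mt-nd1 (1756 ± 81.7) and Mt-co1 (1690 to 1718), which also overlapped. Mt-nd6 (673 ± 117), Mt-nd5 (429 ± 36.4) and Mt-nd4l (64.5 ± 15.8) were at the low end and did not overlap. With a 3′ kit a transcript gives reads from its end rather than along its length, so this scale raises short genes such as Mt-atp8, which has 204 bases.

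The order of the mRNAs differed between the 2 sets of spleen controls. Mt-atp8 was 2nd per length in the spleen controls of the Ets1 table (6499 ± 124 RPM per kb, n = 3) and 7th in those of the Grk2 table (2303 ± 227). Mt-co1 moved the other way, from 9th (1907 ± 221) to 5th (2489 ± 95.4). In the Grk2 table the controls' Mt-co3, Mt-nd3, Mt-co1, Mt-cyb and Mt-atp8 followed each other from a mean of 2610 to 2303, and neighbours among them overlapped.

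**Figure D2:**
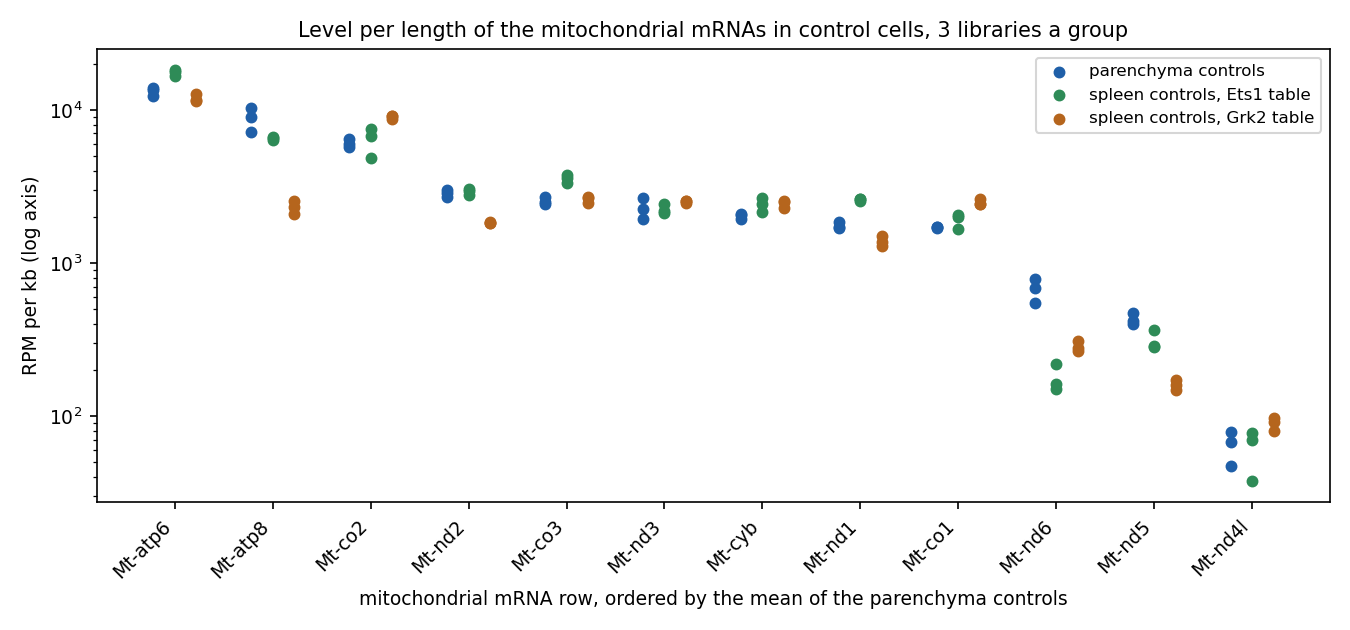
RPM per kb (y axis, log scale) of the 12 mitochondrial mRNA rows with reads in every library (x axis, by the mean of the parenchyma controls), with 1 point for each of 3 control libraries per set. Mt-atp6 lay at the top in all 3 sets (11899 to 17504 on average), and Mt-atp8 of the Grk2 table lay below both other sets.

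Control cells from the parenchyma were compared with control cells from the spleen to see how the mitochondrial transcripts differ between the tissues. Relative to all reads on genes, both rRNAs and the mRNAs Mt-nd6, Mt-nd5 and Mt-atp8 were higher in the parenchyma, while Mt-nd1, Mt-co3 and Mt-atp6 were lower than in the spleen controls of the Ets1 table. Against the spleen controls of the Grk2 table the small-subunit rRNA, Mt-nd6, Mt-nd5 and Mt-atp8 were again higher, but Mt-nd1 was higher rather than lower, and the large-subunit rRNA, Mt-co3 and Mt-atp6 did not pass the test. Tissue, table and the way cells were isolated (a Percoll gradient for spinal cord, red cell lysis and CD4+ enrichment for spleen) cannot be told apart.

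The share of rRNA reads was 23.1%, 24.4% and 22.6% in the 3 parenchyma controls. It was 14.1%, 13.8% and 15.4% in the spleen controls of the Ets1 table and 19.4%, 19.9% and 19.8% in those of the Grk2 table. The parenchyma libraries were above every spleen control without overlap, by 8.93 percentage points (1.62-fold) against the first set and by 3.68 points (1.19-fold) against the second. Each contrast of 3 against 3 libraries gave p = 0.1 in a two-sided exact permutation test, the smallest this design allows, and all 6 spleen controls together gave an exact permutation p = 0.0238, the smallest for 3 against 6. The 2 sets of spleen controls did not overlap each other either. The test on all 6 takes libraries of different tables as interchangeable, so its p does not measure a tissue difference apart from the table.

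The share of mRNA reads was 2.88%, 2.95% and 2.69% in the parenchyma controls and 3.30%, 3.46% and 3.15% in the spleen controls of the Ets1 table, lower in the parenchyma without overlap (difference -0.46 points, exact permutation p = 0.1). In the spleen controls of the Grk2 table it was 2.88%, 2.72% and 2.79%, which overlapped the parenchyma (difference 0.0479 points, exact permutation p = 0.7). There were 8.23 ± 0.19 rRNA reads per mRNA read in the parenchyma controls, 4.39 ± 0.47 in the first and 7.05 ± 0.28 in the second set of spleen controls (SD, n = 3).

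The balance of the 2 rRNAs differed between the tissues by nearly the same amount against either set. For each read on the large-subunit rRNA there were 0.363, 0.387 and 0.357 reads on the small-subunit rRNA in the parenchyma controls. The spleen controls gave 0.234, 0.240 and 0.243 in the Ets1 table and 0.231, 0.238 and 0.240 in the Grk2 table. All 3 parenchyma libraries were above all 6 spleen libraries, by 1.55-fold and 1.56-fold against the 2 sets (exact permutation p = 0.0238 for 3 against 6), although the rRNA shares themselves differed between the sets. That test again takes libraries of different tables as interchangeable. As the measure is a ratio within a library, it does not depend on how libraries are scaled to each other.

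Gene by gene, 10 of the 18 mitochondrial genes tested passed limma's adjusted p under 0.05 against the spleen controls of the Ets1 table, 6 higher and 4 lower, where 39.0% of all genes tested passed. The median log2 difference of the 12 mRNA rows tested was -0.04, beside -0.09 over all genes. When libraries were scaled to reads on genes outside MT these medians were 0.11 and 0.06, a shift of over 0.1 that applies to every gene, and 8 genes passed, 6 higher and 2 lower, without Mt-atp6 and the tRNA row AY172581.12. Counting instead genes whose 3 parenchyma shares all lay on one side of the spleen shares gave 11 of 18 mitochondrial genes, 6 higher and 5 lower, where 48.9% of all genes did so.

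Mt-nd6, the complex I subunit on the minus strand, had the largest difference among the mRNAs against these controls. It had 286, 407 and 355 RPM in the parenchyma controls, against 114, 78.3 and 83.5 in the spleen controls of the Ets1 table and 160, 138 and 144 in those of the Grk2 table. All parenchyma values were above all spleen values. The log2 difference was 1.92 (SE 0.16, limma adjusted p = 2.19e-09) against the first set and 1.23 (SE 0.11, adjusted p = 5.21e-11) against the second.

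The small-subunit rRNA AY172581.9 had 61587, 68130 and 59548 RPM in the parenchyma controls. In the spleen controls it had 26688, 26745 and 30168 in the Ets1 table and 36435, 38188 and 38366 in the Grk2 table, so no library of the spleen reached the parenchyma. The log2 difference was 1.18 (SE 0.11, limma adjusted p = 2.69e-08) and 0.74 (SE 0.07, adjusted p = 4.42e-11). The large-subunit rRNA AY172581.24 was higher by 0.55 (SE 0.13, adjusted p = 0.00129) against the first set, and against the second the log2 difference was 0.10 (SE 0.07, adjusted p = 0.220), although its 3 shares in the parenchyma (16.7% to 17.6%) were above those of the second set (15.8% to 16.1%).

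Mt-nd5, the largest mitochondrial subunit of complex I, had 860, 762 and 733 RPM in the parenchyma controls, above all spleen controls (517, 523 and 668 in the Ets1 table, 313, 292 and 270 in the Grk2 table). Its log2 difference was 0.47 (SE 0.12, limma adjusted p = 0.00258) and 1.42 (SE 0.09, adjusted p = 4.55e-15). Mt-atp8, an accessory subunit of ATP synthase, had 1824, 2098 and 1461 RPM in the parenchyma, 1335, 1345 and 1297 in the first and 516, 471 and 423 in the second set of spleen controls. It too lay above all spleen controls, with log2 differences of 0.42 (SE 0.11, adjusted p = 0.00529) and 1.92 (SE 0.10, adjusted p = 1.12e-17).

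Mt-nd1, the first mRNA after the rRNAs, had 1767, 1625 and 1639 RPM in the parenchyma controls. It lay below the spleen controls of the Ets1 table (2504, 2417 and 2492; log2 difference -0.56, SE 0.09, limma adjusted p = 5.64e-05) and above those of the Grk2 table (1433, 1300 and 1240; log2 difference 0.34, SE 0.07, adjusted p = 0.000211). Mt-co3 and Mt-atp6 fell by 0.49 (SE 0.10, adjusted p = 0.000325) and 0.41 (SE 0.10, adjusted p = 0.00234) on the log2 scale against the first set, and against the second their log2 differences were -0.04 (adjusted p = 0.619) and 0.15 (adjusted p = 0.0647). Mt-co1 and Mt-co2, subunits of complex IV, had log2 differences of -0.15 and -0.05 against the first set and fell by 0.54 (SE 0.07, adjusted p = 2.29e-08) and 0.57 (SE 0.07, adjusted p = 7.81e-09) against the second. Mt-nd2 had a log2 difference of -0.03 against the first set (SE 0.09, adjusted p = 0.825) and was higher by 0.64 (SE 0.07, adjusted p = 1.36e-09) against the second. For Mt-cyb the log2 differences were -0.25 (SE 0.10, adjusted p = 0.0541) and -0.26 (SE 0.07, adjusted p = 0.00166), and Mt-nd3 and Mt-nd4l passed against neither set.

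Against the spleen controls of the Grk2 table, 13 of 19 mitochondrial genes passed, 10 higher and 3 lower, where 59.2% of all genes did, and 15 of 19 did not overlap, 11 higher and 4 lower, where 63.3% of all genes did not. Both contrasts use the same parenchyma libraries. The 2 sets of spleen controls were then compared with each other, a comparison added after the data were seen. Of 18 mitochondrial genes tested, 13 passed, 5 higher and 8 lower in the Grk2 table, where 53.5% of all genes passed. Among the mRNAs Mt-atp8, Mt-nd5, Mt-nd1, Mt-nd2, Mt-atp6 and Mt-co3 were lower in the Grk2 table, with log2 differences of -1.50, -0.95, -0.90, -0.67, -0.56 and -0.44. Mt-nd6, Mt-co2 and Mt-co1 were higher, with log2 differences of 0.69, 0.52 and 0.39, as were AY172581.9 (0.44) and AY172581.24 (0.45).

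**Figure D3:**
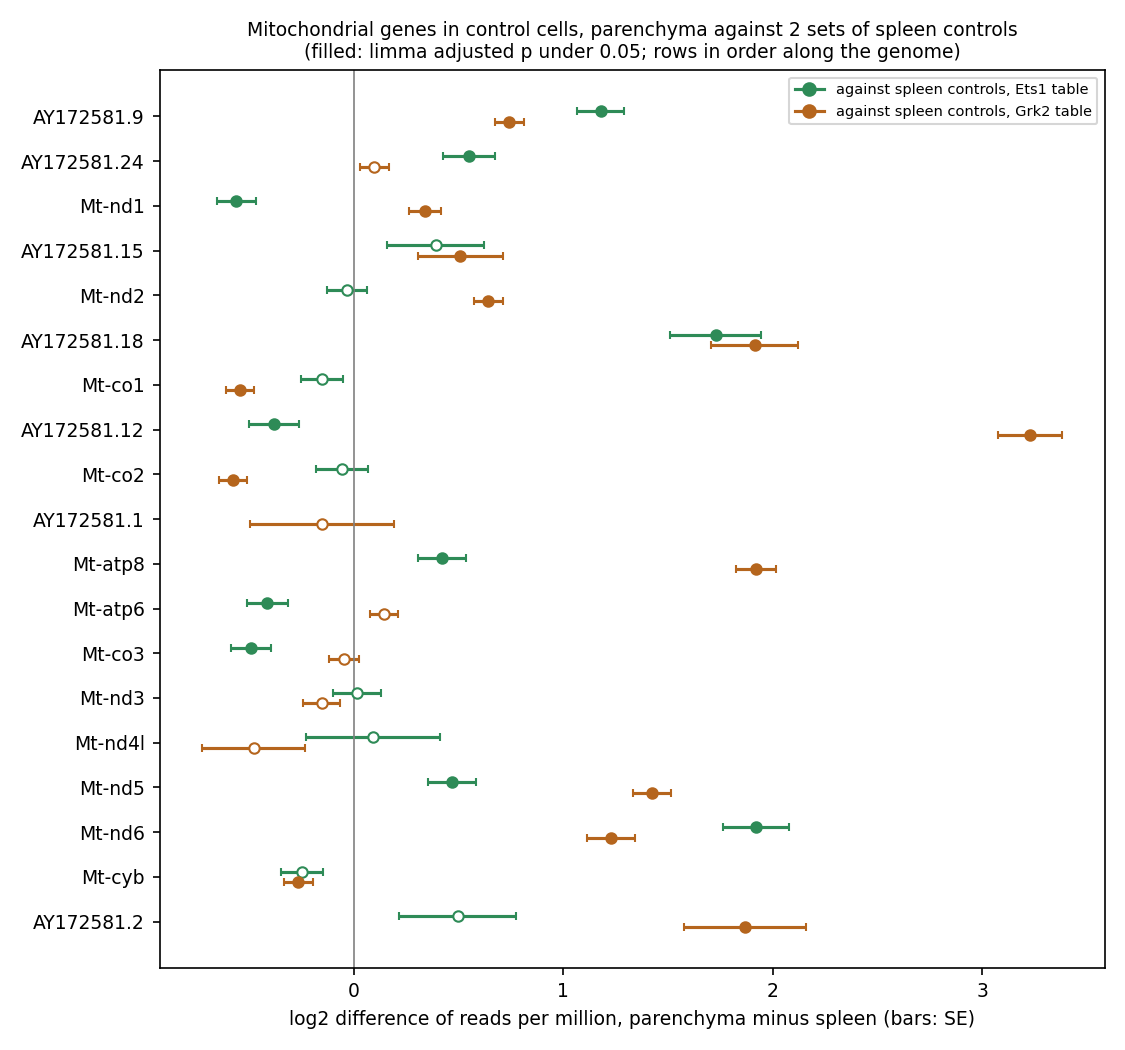
Log2 difference of RPM between parenchyma and spleen controls (x axis; bars are standard errors) for the mitochondrial genes tested (y axis, in order along MT), against the spleen controls of the Ets1 table and of the Grk2 table. Filled points passed limma's adjusted p under 0.05. AY172581.9, AY172581.18, Mt-atp8, Mt-nd5 and Mt-nd6 passed on the right of 0 against both sets, and Mt-nd1 and AY172581.12 passed on opposite sides.

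Of the 22 tRNA rows, 7 had no read in any library, with a kit made for the 3′ ends of polyadenylated RNA. The tRNA rows are named as the tables give them, where their mean reached 10 normalized counts. AY172581.18 (5081 to 5152, minus strand) had 70.2, 67.3 and 58.4 RPM in the parenchyma controls, 18.1, 22.5 and 16.7 in the spleen controls of the Ets1 table and 20.4, 17.1 and 12.9 in those of the Grk2 table. The parenchyma values were above all the others, with log2 differences of 1.73 (SE 0.22, limma adjusted p = 1.56e-06) and 1.91 (SE 0.21, adjusted p = 1.44e-09).

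AY172581.12 (6937 to 7004), which lies just before Mt-co2, set the tables apart instead. It had 271, 238 and 230 RPM in the parenchyma controls and 340, 299 and 323 in the spleen controls of the Ets1 table, but 28.0, 19.7 and 29.7 in those of the Grk2 table. The Grk2 table was lower than the spleen controls of the Ets1 table by 3.61 on the log2 scale (SE 0.17, limma adjusted p = 2.75e-10), while the parenchyma differed from them by -0.38 (SE 0.12, adjusted p = 0.0148). AY172581.2 (15348 to 15415, minus strand) was also lower in the Grk2 table's controls, by 1.37 on the log2 scale (SE 0.33, adjusted p = 0.00235). AY172581.15 and AY172581.1 were at 1.11 to 54.3 RPM over all libraries.

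Summed myeloid markers were higher in the parenchyma controls, while the sums of neural and glial markers overlapped those of the spleen controls of the Ets1 table. The 12 myeloid markers had 140 reads in all in the parenchyma controls. Only 1 of them was tested, and it was higher against either set, where 39.0% and 59.2% of all genes passed in either direction. Myeloid markers summed to 20.0 to 40.4 RPM in the parenchyma controls, with 11 of 12 detected and Cd163 at 0, to 7.42 to 8.33 in the spleen controls of the Ets1 table (8 of 12 detected; C1qb, C1qc, Cd163 and Csf1r at 0) and to 0.761 to 0.856 in those of the Grk2 table (3 of 12). Neural and glial markers summed to 54.2 to 67.9, 39.1 to 62.6 and 28.2 to 36.5 RPM in the same order, and Gfap, Mog and Snap25 had reads in both parenchyma groups and were at 0 in all spleen groups. Of 2 such markers tested, 1 was higher and Nefl, a neurofilament gene named after its values were seen, was lower in the parenchyma than in the spleen controls of the Ets1 table (log2 difference -2.79, SE 0.41, limma adjusted p = 1.04e-05). B cell and erythroid markers were at or below 9.89 and 1.11 RPM in every control library. Of 9 tissue dissociation genes tested, 1 was higher and 6 were lower in the parenchyma than in the spleen controls of the Ets1 table, where 39.0% of all genes passed, and their sums were 1251 to 1278 against 1205 to 1451 RPM. Against the Grk2 table's controls, with sums of 1125 to 1275 RPM, 3 of 8 were higher and 2 lower, where 59.2% of all genes passed. Between the spleen control sets 2 of 9 were higher and 6 lower in the Grk2 table, where 53.5% passed. The part of these cells and genes in the mitochondrial differences was not tested.

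Nuclear genes of the same organelle were read from 2 lists, and the spleen control sets differed in both. Of 45 rows of nuclear respiratory chain subunits tested, 1 was higher and 21 were lower in the parenchyma than in the spleen controls of the Ets1 table. Their median log2 difference was -0.40, beside -0.09 over all genes, and 39.0% of all genes passed. The one that was higher was Cox7c of complex IV. Against the Grk2 table's controls 1 was higher and 32 were lower, where 59.2% of all genes passed. Cox7c was among the lower rows there (log2 difference -2.27, SE 0.09, limma adjusted p = 1.75e-20). The row that was higher was Atp5mc1 (1.24, SE 0.13, limma adjusted p = 6.84e-10), named after its values were seen. Uqcrb and Cox6b1 had 2 rows each there, so the 45 are not all distinct subunits. The 2 rows of Uqcrb differed in sign, with log2 differences of -0.85 (limma adjusted p = 8.04e-07) and 0.55 (adjusted p = 0.0916). Of 23 genes of the mtDNA expression machinery tested, Lrpprc, which stabilises mitochondrial mRNAs (log2 difference 0.51, SE 0.15, limma adjusted p = 0.00884), and Fastkd1, an RNA-binding protein of mitochondria (0.84, SE 0.25, adjusted p = 0.0117), were higher. Rexo2, an exonuclease that degrades short RNAs in mitochondria, fell by 1.04 (SE 0.18, adjusted p = 6.23e-05). Tfam, Polrmt and the rest of that list did not pass against these controls. Against the Grk2 table's controls 6 of 25 genes of the list were higher and 10 lower. Of those named, Lrpprc was again higher (log2 difference 1.24, SE 0.15, limma adjusted p = 9.83e-09) and Polrmt was higher too (0.73, SE 0.30, limma adjusted p = 0.0390). Tfam fell by 1.07 (SE 0.17, adjusted p = 1.77e-06), while Rexo2 (0.03, SE 0.18, adjusted p = 0.889) and Fastkd1 (0.13, SE 0.21, adjusted p = 0.626) did not pass. Between the spleen control sets 10 of 24 genes of that list were higher and 4 were lower in the Grk2 table. Of the 45 rows of respiratory chain subunits, 16 were higher and 6 lower, where 53.5% of all genes passed. The 5 genes of the machinery with the smallest p were Trmt10c (log2 difference 1.35), Slirp (1.43), Rexo2 (-1.07), Tfb2m (1.96) and Ssbp1 (1.42).

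Ets1-KO and control cells of the parenchyma were compared to see whether loss of the transcription factor moved mitochondrial transcripts in the target tissue. Their mitochondrial reads lay close together, and Mt-atp8 alone passed the test. The share on all mitochondrial genes was 25.4%, 26.8% and 26.2% in Ets1-KO and 26.0%, 27.4% and 25.4% in control cells, a difference of -0.11 points (exact permutation p = 1.0). The mRNA share was 2.85%, 2.66% and 2.85% in Ets1-KO cells, -0.0564 points from the controls (exact permutation p = 0.5), and the rRNA share differed by -0.0486 points (exact permutation p = 0.9). The differences within replicate numbers went both ways for each share, and the groups overlapped.

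Of the 19 mitochondrial genes tested in the parenchyma, 1 passed limma with the replicate number as a block, where 5.23% of all genes passed. Mt-atp8 had 2281, 2103 and 2106 normalized counts (reads divided by the library's size factor) in Ets1-KO cells and 2549, 3051 and 2064 in control cells. It was lower in replicates 1 and 2 but not in replicate 3, and the groups overlapped. It fell by 0.22 on the log2 scale (SE 0.07, limma adjusted p = 0.0266). This SE, like the others from limma, is drawn toward a trend over all genes and does not show the spread of this gene's own libraries. Without the block the adjusted p was 0.219, edgeR gave 0.0762 and DESeq2 0.874. The log2 difference was -0.25 (adjusted p = 0.144) without replicate 1, -0.07 (adjusted p = 0.852) without replicate 2 and -0.35 (adjusted p = 1.6e-06) without replicate 3, where 3 mitochondrial genes passed.

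The other mRNA rows of the parenchyma had log2 differences between -0.13 for Mt-nd5 (SE 0.08, limma adjusted p = 0.375) and 0.27 for Mt-nd4l (SE 0.25, adjusted p = 0.650), with a median of -0.03 over the 12 mRNA rows beside -0.03 over all genes. The large-subunit rRNA AY172581.24 was at 0.00435 (SE 0.07) and the small-subunit rRNA AY172581.9 at -0.05 (SE 0.07).

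In the spleen, Ets1-KO cells were set against their controls to ask the same of cells outside the target tissue. Mt-atp8 fell in 2 of 3 pairs and was again the single gene to pass, and replicate 3 of the Ets1-KO cells had more mitochondrial reads than the other 2. The share on all mitochondrial genes was 14.1%, 14.9% and 21.0% in Ets1-KO cells and 17.4%, 17.3% and 18.6% in control cells. Ets1-KO replicates 1 and 2 lay below every control, and replicate 3 above. The rRNA share differed by -2.81, -2.17 and 2.54 points within replicate numbers (mean -0.81, exact permutation p = 0.8). On the log2 scale the ratio of the mean rRNA shares was -0.0833, and 0.0186, -0.0132 and -0.28 without replicates 1, 2 and 3. The mRNA share was lower within all 3 numbers (differences -0.57, -0.29 and -0.14 points), but the groups overlapped (exact permutation p = 0.2). The summed tRNA share was higher in all 3 Ets1-KO libraries (0.0456%, 0.0437% and 0.0503%) than in any control (0.0420%, 0.0395% and 0.0404%; exact permutation p = 0.1).

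Replicate 3 also had more small-subunit rRNA for each read of the large-subunit rRNA, at 0.313 against 0.235 and 0.206 in Ets1-KO replicates 1 and 2 and 0.234 to 0.243 in the controls. Its ratio lay between those of the spleen controls and the parenchyma. Its Mt-nd6 (142 RPM) was above Ets1-KO replicates 1 and 2 (89.5 and 56.9), as was its Mt-nd5 (594 against 359 and 424), Mt-nd2 (3237 against 2166 and 2606) and Mt-atp8 (1355 against 580 and 544). For Mt-atp8 the controls had 1335, 1345 and 1297 RPM, so replicates 1 and 2 were the ones far from them. Mt-nd1 and Mt-nd4l of replicate 3 were above both as well. Its Mt-co3 (2198 against 2273 and 2694) and Mt-cyb (2534 against 2650 and 2872) were below both. Mt-co1, Mt-co2, Mt-nd3 and Mt-atp6 lay between.

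Of the 18 mitochondrial genes tested in the spleen, 1 passed, where 2.22% of all genes passed. Mt-atp8 had 759, 711 and 1903 normalized counts in Ets1-KO cells and 1772, 1738 and 1826 in control cells. Replicates 1 and 2 of the Ets1-KO cells were far below the controls and replicate 3 was above them. Mt-atp8 fell by 0.82 on the log2 scale (SE 0.17, limma adjusted p = 0.00847), and by 1.26 (adjusted p = 1.49e-14) without replicate 3. The SE is drawn toward a trend over all genes and does not show how far replicate 3 lay from the other 2. Without the block the adjusted p was 0.0770, DESeq2 gave 0.547, edgeR gave 0.000337, and without replicate 1 it was 0.602 (log2 difference -0.61). Leaving out replicate 2 gave a log2 difference of -0.58 (adjusted p = 0.0011) and 3 mitochondrial genes that passed.

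The tRNA row AY172581.18 was higher in all 3 Ets1-KO libraries of the spleen, with 58.2, 39.1 and 48.7 normalized counts against 24.1, 29.0 and 23.5 in controls, without overlap. Its log2 difference of 0.89 (SE 0.25, limma adjusted p = 0.0594) missed the threshold, while edgeR gave an adjusted p = 0.0357 and limma gave 0.674, 0.0117 and 0.0806 without replicates 1, 2 and 3. Mt-co3 and Mt-atp6 were lower in all 3 Ets1-KO libraries, at 2972, 3522 and 3085 against 3914, 3614 and 3679 normalized counts for Mt-co3 and at 12917, 14901 and 14553 against 14944, 16035 and 17017 for Mt-atp6. Neither passed (log2 differences -0.23 and -0.18, adjusted p = 0.420 and 0.687). The tRNA row AY172581.15 was higher in all 3 Ets1-KO libraries and did not pass either (log2 difference 0.58, SE 0.22, limma adjusted p = 0.200). Each of these rows without overlap gave an exact permutation p = 0.1, the smallest possible. How many of all genes did not overlap in this contrast was not counted. The median over the 12 mRNA rows was -0.19, and -0.06, -0.18 and -0.27 without replicates 1, 2 and 3, beside 0.000389 over all genes.

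In this contrast 4 of 9 tissue dissociation genes tested were higher in Ets1-KO cells, where 2.22% of all genes passed in either direction, with sums of 1891, 1724 and 1608 RPM against 1451, 1327 and 1205 in control cells without overlap, and 1 of 2 neural and glial markers tested, Nefl, was higher (log2 difference 1.31, SE 0.23, limma adjusted p = 0.00328, with sums over the list of 69.6 to 108 against 39.1 to 62.6, with Gfap, Mog and Snap25 at 0 in both groups). In the parenchyma 1 of 9 tissue dissociation genes tested was higher and 1 lower in Ets1-KO cells, where 5.23% of all genes passed. Their sums of 1391 to 1495 RPM against 1251 to 1278 in control cells did not overlap there either. T cell markers also summed higher there without overlap (3879 to 4007 against 3556 to 3775 RPM), and 0 of 10 passed. The part of these genes in the mitochondrial values was not tested in either tissue.

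Grk2-KO and control cells of the spleen were compared in the same way, Grk2 being a kinase that desensitises G protein-coupled receptors. The mitochondrial share was lower in all 3 Grk2-KO libraries. Mt-nd6 was the single mitochondrial gene to pass, lower in all but 1 pair and with groups that overlapped. The share on all mitochondrial genes was 20.2%, 22.2% and 20.3% in Grk2-KO cells and 22.3%, 22.6% and 22.6% in control cells, with differences of -2.15, -0.38 and -2.31 points within replicate numbers. The groups did not overlap, with a mean difference of -1.61 points and an exact permutation p = 0.1, the smallest possible. The rRNA share differed by -1.77 points (exact permutation p = 0.2) and the mRNA share by 0.16 points (exact permutation p = 0.7), the latter being 2.81%, 2.71% and 3.35% in Grk2-KO cells. None of the share tests could pass a threshold of 0.05 with 3 against 3 libraries.

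Of the 18 mitochondrial genes tested, 1 passed in Grk2-KO cells, where 1.56% of all genes passed. Mt-nd6 had 112, 188 and 132 normalized counts in Grk2-KO cells and 205, 178 and 191 in control cells. Replicates 1 and 3 of the Grk2-KO cells were below every control and replicate 2 was within their range. Mt-nd6 fell by 0.44 on the log2 scale (SE 0.11, limma adjusted p = 0.0157), with an SE drawn toward a trend over all genes rather than taken from its own spread. The adjusted p was 0.299 without the block, 0.0112 with edgeR and 0.999 with DESeq2, and the log2 difference was -0.23 (adjusted p = 0.669), -0.70 (0.0994) and -0.39 (0.191) without replicates 1, 2 and 3.

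Mt-nd1 and Mt-nd3, also of complex I, did not pass, though they were higher in all 3 Grk2-KO libraries than in any control. Each gave an exact permutation p = 0.1, the smallest possible. How many of all genes did not overlap in this contrast was not counted. Mt-nd1 had 1964, 1839 and 2272 normalized counts against 1832, 1684 and 1649 (log2 difference 0.23, SE 0.07, limma adjusted p = 0.0510), and Mt-nd3 had 1199, 1173 and 1582 against 1128, 1143 and 1147 (0.20, SE 0.07, adjusted p = 0.186). The small-subunit rRNA AY172581.9 had a log2 difference of -0.25 (SE 0.08, adjusted p = 0.132) and the large-subunit rRNA AY172581.24 one of -0.12 (SE 0.11, adjusted p = 0.756). The median over the 12 mRNA rows was 0.06, beside 0.02 over all genes.

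**Figure D4:**
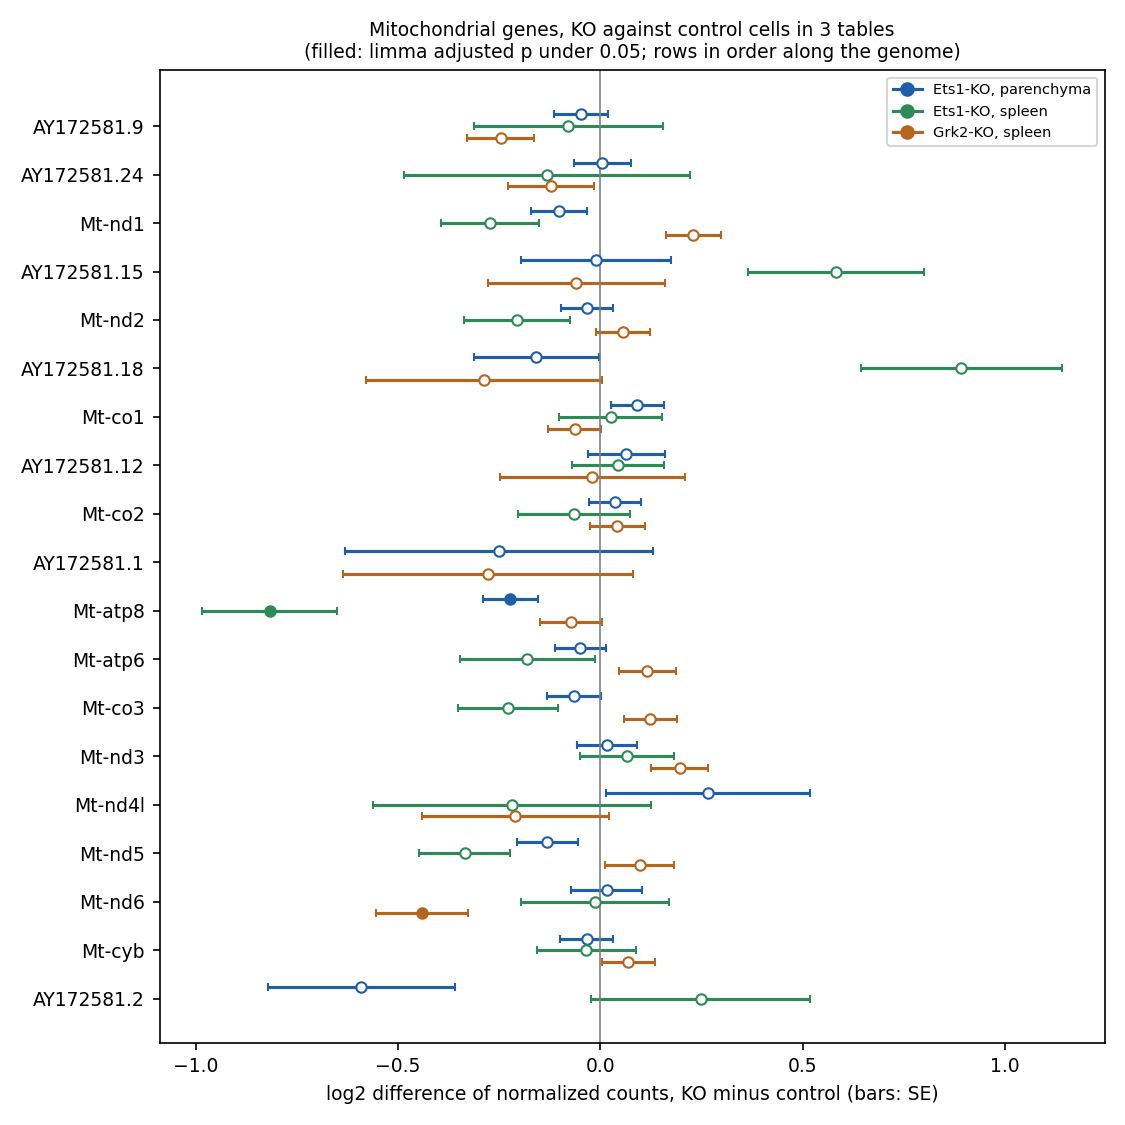
Log2 difference of normalized counts between KO and control cells (x axis; bars are standard errors) for the mitochondrial genes tested (y axis, in order along MT) in the parenchyma Ets1, spleen Ets1 and spleen Grk2 tables. Filled points passed limma's adjusted p under 0.05: Mt-atp8 at -0.22 and -0.82 in the Ets1 tables and Mt-nd6 at -0.44 in the Grk2 table.

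No gene of the mtDNA expression machinery passed limma's adjusted p in any KO contrast, of 22, 24 and 27 tested in the parenchyma Ets1, spleen Ets1 and spleen Grk2 tables, and 3, 1 and 0 had an unadjusted p under 0.05. Of 45 rows of nuclear respiratory chain subunits, Uqcrq of complex III was higher in Ets1-KO cells of the parenchyma (log2 difference 0.31, SE 0.10, limma adjusted p = 0.0347). Cox7c was higher in those of the spleen (0.62, SE 0.15, adjusted p = 0.0253), and both were named after their values were seen. In Grk2-KO cells 0 of these rows passed. Over all genes 5.23%, 2.22% and 1.56% passed in the 3 contrasts. An unadjusted p under 0.05 was reached by 9, 10 and 3 of the 45 in the 3 contrasts. Over all genes tested, 1186 of 7002, 984 of 6979 and 728 of 6985 reached it. Of the 45, 33, 31 and 35 had a log2 difference above 0. The medians over the 45 rows were 0.11, 0.17 and 0.07 on the log2 scale, beside -0.03, 0.000389 and 0.02 over all genes.

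Whether the effect of Ets1 editing differed between the tissues was tested on the log2 ratio of Ets1-KO to control cells within each replicate number. Of 18 mitochondrial genes tested, 1 passed, where 2.10% of all genes passed. For AY172581.18 the ratio in the parenchyma minus that in the spleen was -1.05 (SE 0.29, limma adjusted p = 0.0406), its log2 difference being -0.16 in the parenchyma (67.7, 107 and 78.2 normalized counts in Ets1-KO against 98.1, 97.8 and 82.6 in control cells) and 0.89 in the spleen. Fitted without the pairing, the adjusted p was 0.0861. It was 0.612 (difference -0.69), 0.0186 (-1.43) and 0.133 (-1.03) without replicates 1, 2 and 3. For Mt-atp8 the difference between the tissues was 0.59 (SE 0.20, adjusted p = 0.117), so its larger decrease in the spleen did not pass as a difference, but it did without replicate 3 (0.91, adjusted p = 0.000464). For the shares the tissue difference was 0.28 points for mRNA (exact permutation p = 0.2) and 0.76 points for rRNA (exact permutation p = 0.7).

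**Figure D5:**
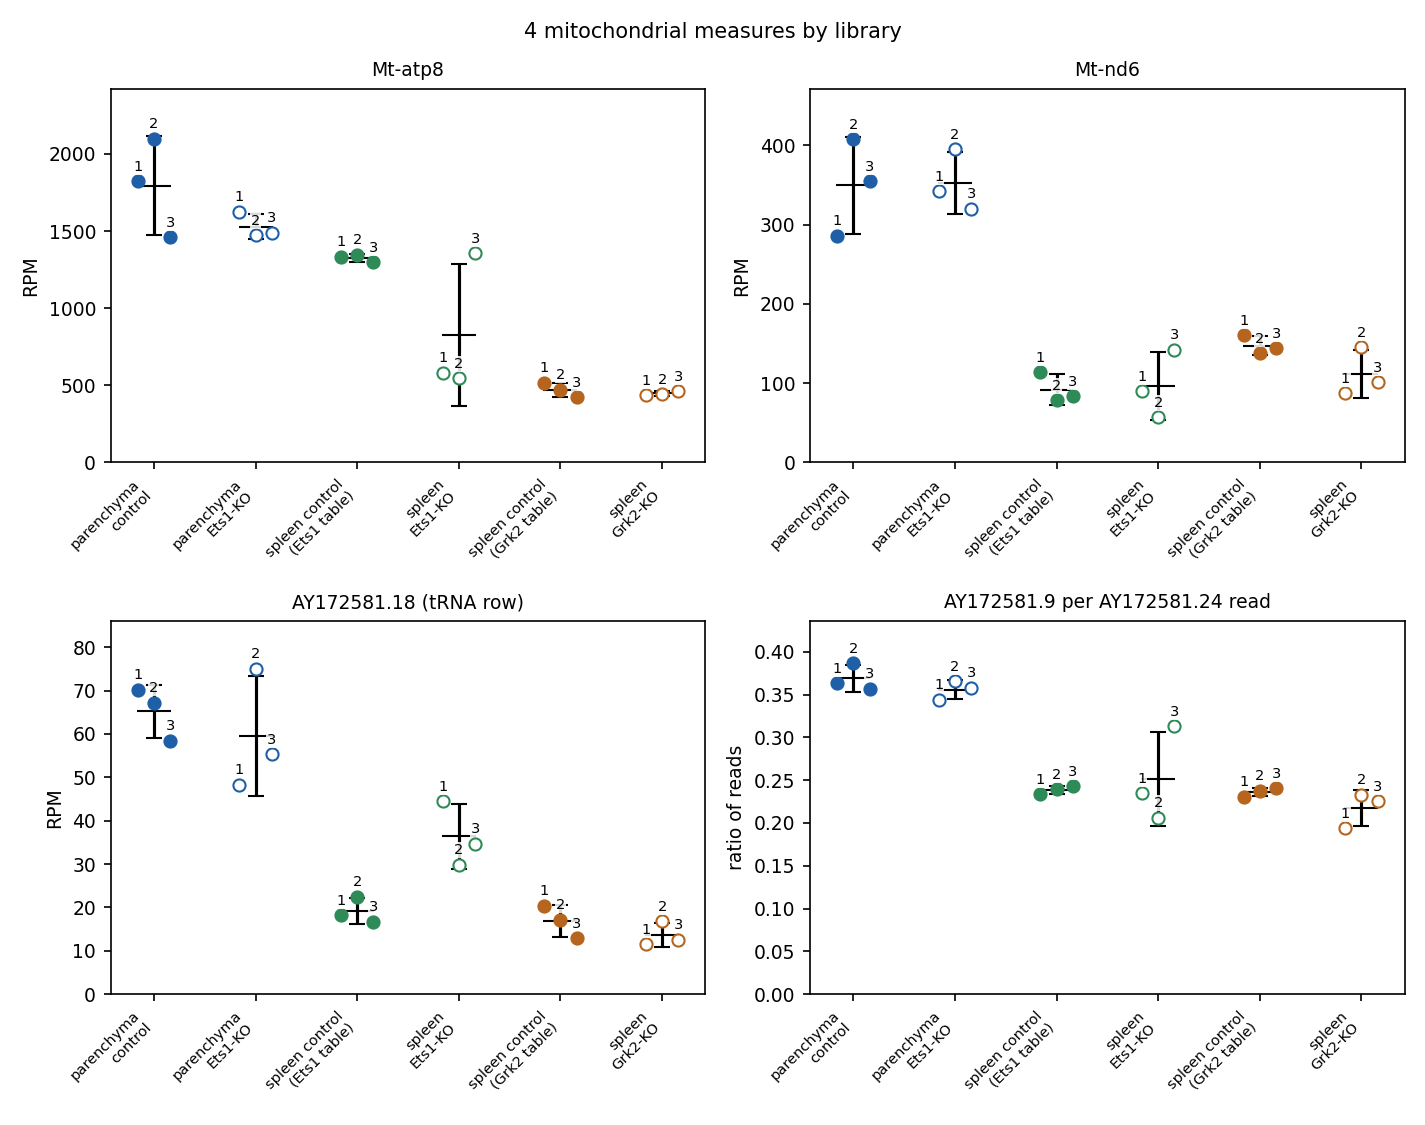
RPM of Mt-atp8, Mt-nd6 and the tRNA row AY172581.18, and reads on AY172581.9 per read on AY172581.24 (y axes, from 0), in the 6 groups (x axis). Points are libraries marked with their replicate number, filled for control and open for KO cells; bars are the mean and SD of 3 libraries. Mt-nd6, AY172581.18 and the rRNA ratio were higher in both parenchyma groups than in any spleen library, and Mt-atp8 of spleen Ets1-KO replicates 1 and 2 lay below their controls.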

How the data were processed

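Bulk 3′ mRNA sequencing of 18 libraries of T-MBP cells was read from 3 tables, 6 libraries each. According to the methods and the submitters' processing notes, the authors aligned single-end reads with STAR 2.7.2b to Rnor_6.0, counted them per gene with HTSeq 1.0.0 and divided them by DESeq2 (version 2.11.40.7) size factors. The signal values deposited by the authors are these normalized counts per gene and library, scaled within each table. All positive values (100%, tolerance 0.01) were multiples of 1 step per library, which gave whole reads for shares, RPM and the count tests; in parenchyma Ets1-KO replicates 1 and 2 the step was close to 1 and the same, so their whole reads are less certain. Tables of the authors' own fold changes, p values and pathways were not used, nor were 8 columns of human values of samples not mapped here.

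Members are all rows on MT. Members and lists were chosen with earlier results of these data known. All protein-coding and rRNA rows are named, tRNA rows where their mean reached 10, Ets1 and Grk2 as checks, and machinery genes that passed (at most 5 per comparison). KO and control cells were compared within a table with limma 3.58.1 (eBayes with a trend) on log2(normalized count + 1), two-sided, for genes with a mean of at least 10, with the replicate number as a block and Benjamini-Hochberg adjustment over all genes tested at 0.05. Control cells of the tissues were compared on log2(RPM + 1) without a block, and the effect of Ets1 editing between tissues on paired log2 ratios. Fold changes on these scales understate changes of low genes. The SEs and p values of limma draw each gene's variance toward a trend over all genes. The prior degrees of freedom were infinite, 21.97 and 141.3 in the parenchyma Ets1, spleen Ets1 and spleen Grk2 tables. Such SEs do not show the spread of a single gene's own libraries. Shares were compared with two-sided exact permutation tests (SciPy). Alternatives used edgeR 4.0.16, DESeq2 1.42.0, other scalings, filters and pseudocounts, and left out single libraries; the lists were set against the Grk2 table's controls after the data were seen. Pairing by number comes from the co-transfer design and not from the labels. Depth was 898092 to 2248258 reads on genes per library.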

Additional observations from a re-analysis of the deposited data

Results flagged for a closer look

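The tRNA row AY172581.18 (MT, 5081 to 5152, minus strand) was marked because the effect of Ets1 editing on it differed between the tissues in a test of the difference itself: the log2 ratio of Ets1-KO to control cells in the parenchyma minus that in the spleen was -1.05 (SE 0.29, limma adjusted p = 0.0406). Over 7 other settings the difference ranged from -1.43 to -0.69 and passed in 2. The row had 11.5 to 75.1 RPM over the 18 libraries.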

How the results depend on the processing

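Mitochondrial genes called: in Ets1-KO cells of the parenchyma the count was 0 with no replicate block, no filter, DESeq2, edgeR or eBayes without a trend, and 0 to 3 when 1 replicate was left out; in Ets1-KO cells of the spleen it was 0 with no replicate block, DESeq2 or eBayes without a trend, 2 with edgeR, no filter or upper quartile scaling, 3 with quantile normalization, and 0 to 3 when 1 replicate was left out. In Grk2-KO cells it was 0 with no replicate block, a minimum mean of 50, quantile normalization, DESeq2 or eBayes without a trend, 2 with no filter, a pseudocount of 5 or scaling to all reads, and 0 when any replicate was left out. Deviations of same-numbered libraries correlated at 0.126, 0.159 and -0.003 (parenchyma Ets1), 0.089, 0.077 and 0.175 (spleen Ets1) and 0.145, 0.006 and 0.122 (spleen Grk2), highest with the own number except for parenchyma Ets1-KO replicate 3 and Grk2-KO replicate 2; the labels give no pairing, and a call lost without the block is not read as a weaker effect. For the Ets1 effect between tissues it was 0 with no replicate block, without a trend or with scaling outside MT, and 0 to 1 when a replicate was left out. Over all genes, the fit with no replicate block called 200 of 7002, 71 of 6979 and 19 of 6985 genes in the 3 KO contrasts, beside 366, 155 and 109. The cause of these changes was not tested.

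Between tissues 6 genes were called without a trend, 11 with a replicate block and 8 to 13 when 1 library was left out. The controls of the Grk2 table turned Mt-nd1 to 0.34, Mt-atp6 to 0.15 and AY172581.12 to 3.23 on the log2 scale, and Mt-nd2, not called before, to 0.64. The log2 ratio of the mean mRNA shares moved from -0.22 to -0.059 per read outside MT, -0.13 without the large-subunit rRNA, 0.02 (0.025) with the Grk2 table's controls and -0.10 with both sets; that of the rRNA shares moved from 0.69 to 0.85, 1.27, 0.25 and 0.45. In Grk2-KO cells the rRNA ratio moved from -0.14 to -0.25 without the large-subunit rRNA. All 41 other share values moved by less than 1 SD. The 27 called values kept their direction in all but the 3 named of 306 refits, and 41 refits lost the call. In the comparison of the spleen controls, 2 of 104 refits lost a call, that of the large-subunit rRNA. Low counts limit Mt-nd4l and most tRNA rows.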
